A study of Mus musculus with 20 samples.

Results

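The genes described here build and use the neuronal cytoskeleton in mouse brain: kinesin, dynein and myosin motors, dynamins, tubulins, actins, ankyrins, spectrins and the proteins that bind microtubules. They were chosen by gene symbol from 3 lists of edited RNA sites, 1 each for cortex, hippocampus and cerebellum. Symbols beginning with names such as Kif, Dync, Dctn, Tuba, Tubb, Sptb or Stmn were taken, and some names, such as Map2, only as the whole symbol. The rule left out 1 myosin symbol. This gave 61 genes of the 3731 in the lists, with 603 sites of 25978.

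The study mapped m6A, or N6-methyladenosine, the methylated form of adenosine in RNA. Mice carried an inducible transgene for APOBEC1-YTH, in which a YTH domain that binds m6A carries the cytidine deaminase APOBEC1 to methylated RNA. Cytidines beside an m6A then appear as uridines in the reads. Mice with APOBEC1-YTHmut served as the background for such edits. All mice of both genotypes received tamoxifen by injection at 20 mg/kg, 1 dose per 24 h over 5 days, and their brains were taken 7 days after dosing ended. Each APOBEC1-YTH region had 4 libraries, from the same 4 animal numbers, and APOBEC1-YTHmut had 3 libraries from cortex, 2 from hippocampus and 3 from cerebellum. Age, strain, sex and the promoter or cell type driving the transgene were not given in the labels. The tissue was whole, so neurons, glia and vessels contributed RNA together.

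Microtubules are polar tracks of tubulin along which kinesins carry cargo mostly outward into axons and dendrites, while cytoplasmic dynein with dynactin carries cargo back. Spectrins and ankyrins line the neuronal membrane beneath the axon initial segment and nodes, and dynamins cut membranes during vesicle recycling and organelle division. m6A is read by YTH-domain proteins and is found often near stop codons and in 3′ untranslated regions.

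Each list gave 1 editing level per site, the share of reads edited, printed here in percent. The lists name no library and hold 1 value per site, read here as pooled over a region, with no value per animal, no read depth and no APOBEC1-YTHmut value. No spread between animals could therefore be computed, and no difference was tested. Intervals given below are 95% intervals over sites or genes of these lists and leave out the error from animals and from read counting. They also take sites as independent, although many sites lie close together in a few genes, so they may be too narrow. A gene or site missing from a list may be unmethylated, weakly expressed or too thinly sequenced there, which cannot be told apart. For the same reason, a level in whole tissue does not separate a change per cell from a change in which cells are present.

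Marker genes followed the labelled tissues in part. Of 6 Purkinje cell markers, 5 were listed in cerebellum with 130 sites, against 10 sites in cortex and 4 in hippocampus. Of 5 granule cell markers, only Zic1 was listed, in cerebellum, and Gabra6 and Cbln3 had no site anywhere. Of 6 hippocampal markers, 5 were listed in hippocampus with 45 sites, 2 in cortex with 13 sites and 1 in cerebellum with 1 site. At 9 sites of these genes shared by cortex and hippocampus, the median log2 ratio of hippocampus over cortex was -0.82. Of 6 cortical markers, 4 were listed in cortex with 16 sites, 1 in hippocampus with 1 site and 0 in cerebellum. Oligodendrocyte markers were listed for 4 of 5 genes in every region, astrocyte markers likewise, and choroid plexus markers for 2 of 4 genes in cerebellum alone. Of 5 microglial markers 1 was listed, in cortex alone, and of 4 endothelial markers 1 was listed, in every region. The part of these cell types in the differences below was not tested.

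Edited sites were spread widely over these genes. The cortex list held 434 sites in 57 of them, the hippocampus list 354 in 49 and the cerebellum list 347 in 47. Of all listed genes, 84.8% were in the cortex list, 68.3% in the hippocampus list and 59.7% in the cerebellum list. All 3 regions listed 40 of the 61 genes, or 65.6%, against 43.1% of all listed genes. The RefSeq annotation holds 165 protein-coding genes that match the symbols, so 37.0% had a site, against 16.7% of all protein-coding genes. The lists hold no expression values.

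The families differed in how many of their genes were listed. Among 48 annotated kinesin genes, 15 had a site. Among the 24 annotated myosins that the rule kept, only Myo6 did, a motor that walks toward the minus end of actin filaments. The myosin symbol left out by the rule is not counted, so these numbers do not cover all myosins. By contrast, 9 of 16 dynein and dynactin genes, 7 of 10 ankyrins and spectrins, 10 of 15 microtubule-associated proteins and 4 of 5 stathmins were listed. Several large or abundant components had no listed site. These included Dync1h1, the dynein heavy chain, Dctn1, the largest dynactin subunit, Sptan1, the main brain alpha spectrin, and Macf1, a giant linker of actin and microtubules. Tuba1a, Tubb2b, Actg1, Map6, Mapre1, Kif17 and Dnm2 had none either. Reads of near-identical tubulin and actin genes are hard to place, and how the authors treated them was not stated, so the counts for Tuba, Tubb, Actb and Actg genes are uncertain.

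A few genes held much of the total. The 5 genes with the most sites had 30.7% of the 603 sites, and the 10 with the most had 47.1%. A listed member carried on average 7.61, 7.22 and 7.38 sites in cortex, hippocampus and cerebellum, against 5.65, 5.29 and 5.11 over all listed genes. Median numbers were 4, 5 and 5, against 3, 2 and 2. Ank3, Ank2, Kif5c and Dnm3 led the numbers.

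**Figure D1:**
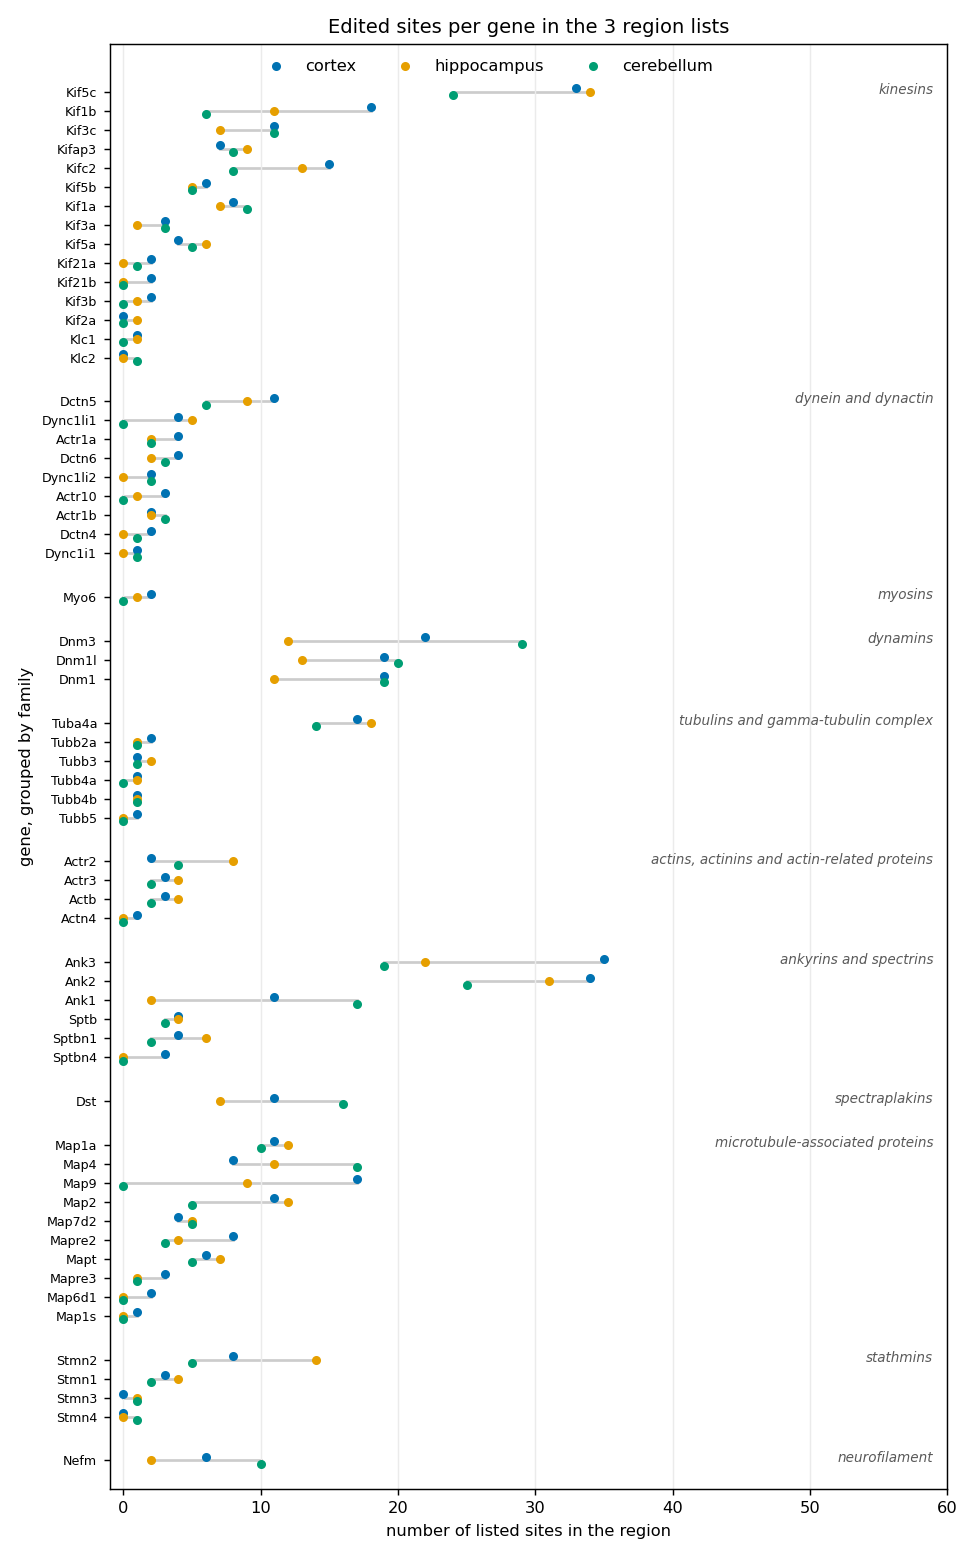
Number of listed sites (horizontal axis) for 60 of the 61 genes, grouped by family, with 1 point per region and a bar joining the regions. Ank2, Ank3 and Kif5c have the most sites in cortex and hippocampus and Dnm3 in cerebellum, while Map9 reaches 17 in cortex and 0 in cerebellum and Ank1 has 2 in hippocampus.

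Levels were mostly low. The median was 2.62% in cortex (2.45 to 2.83), 2.46% in hippocampus (2.28 to 2.72) and 2.67% in cerebellum (2.40 to 2.88). Over all listed sites the medians were 2.91%, 2.82% and 3.36%, each above the upper bound for the members. That bound takes sites of the same gene as independent and is not a test. Sites at 10% or more made up 5.53%, 5.08% and 6.05% of members' sites in these regions, against 6.54%, 6.14% and 8.99% of all. The cerebellar list thus had the widest gap between these genes and the rest.

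Sites recurred between regions more often than in the lists at large. Of the 603 sites, 181 or 30.02% (26.4 to 33.8, exact binomial) were listed in all 3 regions, against 19% of all sites. Among genes listed in all 3 regions the shares were 33.4% and 26.2%. Another 110 sites were in cortex alone, 56 in hippocampus alone and 86 in cerebellum alone. Pairs of regions shared the rest, with 90 sites in cortex and hippocampus, 53 in cortex and cerebellum and 27 in hippocampus and cerebellum.

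Levels at shared sites were close between cortex and hippocampus and less so with cerebellum. Over 271 sites shared by cortex and hippocampus, the median log2 ratio of hippocampus over cortex was -0.05 (-0.15 to 0.06). At 14 sites (5.17%) the hippocampal level was at least 2-fold higher and at 15 (5.54%) at least 2-fold lower, against 7.37% and 8.17% of all shared sites. Over 234 sites shared by cortex and cerebellum the median was -0.06 (-0.20 to 0.05). There, 25 sites (10.7%) were 2-fold higher in cerebellum and 35 (15.0%) lower, against 15.1% and 12% of all. Without Kif5c, 12.2% were lower and the median was 0.01. Over 208 sites shared by hippocampus and cerebellum the median was -0.15 (-0.28 to -0.03), with 18 (8.65%) higher and 15 (7.21%) lower in cerebellum, against 15.2% and 11.4%. Over all shared sites the 3 medians were -0.02, 0.06 and 0.04. All regions' levels came from the same 4 animal numbers, and the comparisons share the regions they are made from.

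**Figure D2:**
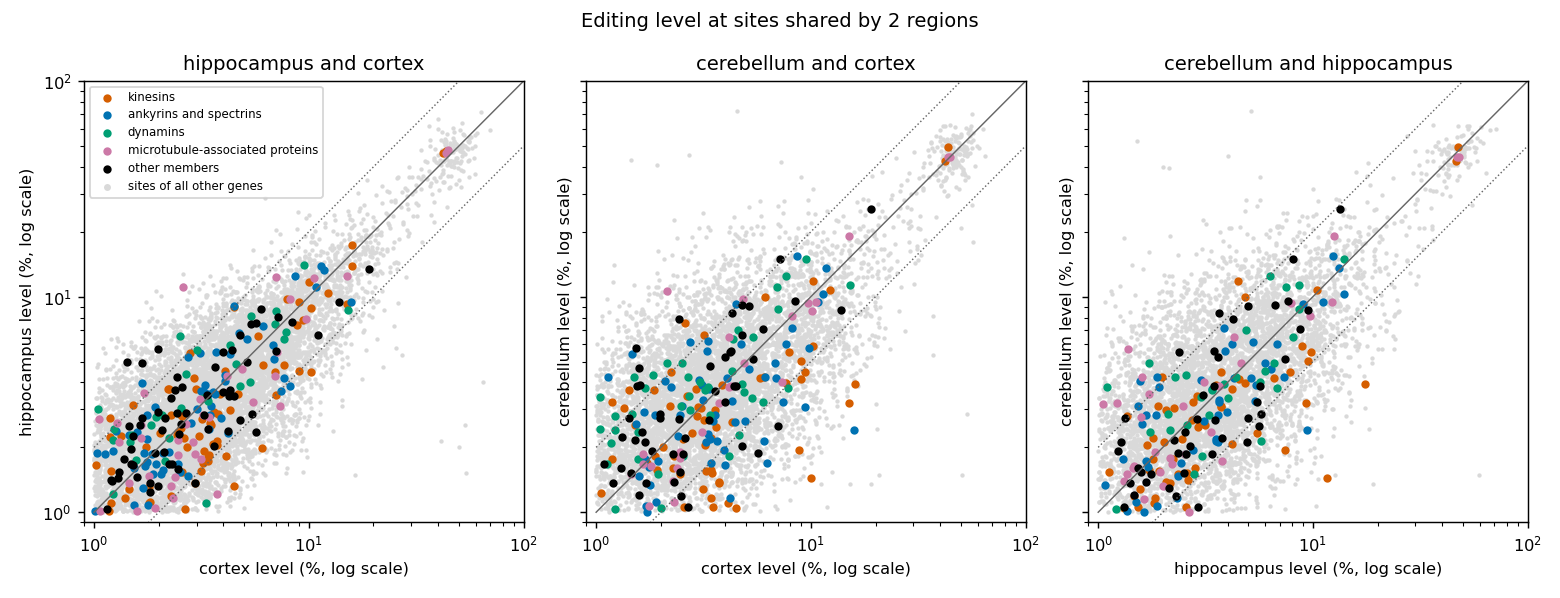
Editing level in percent (log scales) at each site shared by a pair of regions, 1 panel per pair, with family colours and a line of equal level. The points lie along the line for hippocampus against cortex (271 sites) and scatter more widely for cerebellum against cortex (234 sites).

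The number of sites per gene differed at least 2-fold between regions for some members, fewest between cortex and hippocampus. Among 30 members with at least 5 sites in cortex or hippocampus, only Actr2 had at least 2-fold more in hippocampus after adding 1 to each number, and Ank1 and Nefm had fewer. Of all genes with that many sites, 2.87% had more and 24.4% fewer. Among 27 members compared between cortex and cerebellum, Map4 had more in cerebellum and Kif1b, Map2, Map9 and Mapre2 had fewer, or 14.8%, against 11.4% of all with more and 45.3% with fewer. Between hippocampus and cerebellum, 4 of 29 had more in cerebellum (Ank1, Dnm3, Dst and Nefm) and 5 had fewer (Dync1li1, Map2, Map9, Sptbn1 and Stmn2), against 20.4% and 33.1%. The list of cerebellum is shorter as a whole, which these numbers do not correct for.

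Kif5c, a heavy chain of conventional kinesin abundant in neurons, had the most sites of any motor. Its 39 positions numbered 33, 34 and 24 in cortex, hippocampus and cerebellum. All but 1 lay within 3608 nt of the annotated gene end on chromosome 2 (mm10). At the 21 sites shared by cortex and cerebellum, 17 levels were lower in cerebellum, with means of 5.11% and 3.37% and a median log2 ratio of -0.80 (-0.46 over the 11 shared sites of at least 2% in both). At the 29 sites shared with hippocampus, 22 were lower there than in cortex (median log2 ratio -0.40). A site 23 nt before the annotated end, chr2:49774755-49774755, read 10.20% in cortex, 4.49% in hippocampus and 11.76% in cerebellum, so not every Kif5c site followed the others. The Kif5c site at chr2:49771756-49771756 read 12.31%, 10.45% and 10.75%.

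Kifc2, a brain kinesin with its motor domain at the carboxyl end, was listed at lower levels in cerebellum at every site it shared with the other regions. It had 15 cortical, 13 hippocampal and 8 cerebellar sites, all within 855 nt of the annotated end on chromosome 15. All 8 sites shared by cortex and cerebellum were lower in cerebellum, with means of 8.59% and 2.59%, and 6 of them differed at least 2-fold (median log2 ratio -1.79). Against hippocampus, the same 8 cerebellar levels were also lower, at a mean of 2.59% against 7.66% (median log2 ratio -1.22). The site at chr15:76667341-76667341 read 15.96% in cortex, 17.40% in hippocampus and 3.95% in cerebellum. At chr15:76667580-76667580 the levels were 15.11%, 9.24% and 3.20%, and at chr15:76667470-76667470 they were 10.06%, 11.66% and 1.44%. Cortex and hippocampus were high and cerebellum low at each of these. A further site 45 nt from the end, at 15.93% in cortex and 13.85% in hippocampus, was not in the cerebellar list, and it lies with 2 others inside the span of Foxh1.

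The other kinesins were less even. Kif1b and Kif1a carry mitochondria and synaptic vesicle precursors. Kif1b had 18, 11 and 6 sites in cortex, hippocampus and cerebellum, none above 3.57%, and Kif1a had 8, 7 and 9. For Kif1a, 4 of 8 levels shared by cortex and cerebellum were higher in cerebellum and 4 lower. Kif3a, Kif3b and Kif3c are motor subunits of heterotrimeric kinesin and Kifap3 is its cargo adaptor. Kif3c had 11, 7 and 11 sites, and of 8 shared by cortex and cerebellum 4 were higher and 4 lower in cerebellum. Kif5b, a conventional kinesin heavy chain found in most tissues, had 6, 5 and 5 sites. Of its 3 sites shared by hippocampus and cerebellum, 2 were higher in cerebellum, 1 of them at 4.83% and 10%, and 1 was lower, at 9.79% and 5.56%. Kif3b had 1 shared site at 4.48% in cortex and 8.96% in hippocampus. Kifap3 had 7, 9 and 8 sites, and its 3 sites shared by cortex and cerebellum had a median log2 ratio of 0.99, or 0.17 over the 2 of them at 2% or more. The light chains, which link conventional kinesin to cargo, had 1 site each, Klc1 at 7.01% in cortex and 3.51% in hippocampus and Klc2 at 2.88% in cerebellum. Kif2a, a kinesin that takes microtubules apart, was listed in hippocampus alone, at 5.08%. Over all kinesins, 60 sites were shared by cortex and cerebellum, of which 6 were 2-fold higher and 17 lower in cerebellum (median log2 ratio -0.32), against 15.1% and 12% of all shared sites. Kif5c and Kifc2 supplied 15 of those 17. Without these genes, 31 kinesin sites were shared, 6 of them higher and 2 lower, and the median log2 ratio was -0.03 (-0.30 to 0.35).

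Dynein and dynactin had fewer sites. Dctn5, a subunit of the pointed end of dynactin, had 12 positions, of which 11 were cortical, 9 hippocampal and 6 cerebellar. Of the 6 shared by cortex and cerebellum, 5 were higher in cerebellum. The Dctn5 site at chr7:122148254-122148254 read 7.19%, 8.06% and 15.00% in cortex, hippocampus and cerebellum. A second Dctn5 site, at chr7:122148196-122148196, read 13.79%, 9.49% and 8.70%, highest in cortex. Dync1li1, a light intermediate chain that binds cargo adaptors, had 4 sites in cortex, 5 in hippocampus and none in cerebellum, and 4 of its 7 positions lay past the annotated gene end. Dync1li2, Dync1i1 and Dctn4 were listed in cortex and cerebellum but not hippocampus. The dynactin filament subunits Actr1a and Actr1b were listed everywhere, and Actr10, which caps that filament, had a site at 17.02% in cortex alone and a second at 10.98% in cortex and 6.67% in hippocampus.

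All 3 listed dynamins had many sites. Dnm1, the neuronal dynamin of synaptic vesicle endocytosis, had 19 cortical, 11 hippocampal and 19 cerebellar sites. Its highest site, chr2:32309827-32309827, read 7.63%, 6.34% and 12.43%. Dnm1l, the dynamin-related protein of mitochondrial fission, had 19, 13 and 20 sites. At 10 of its 13 sites shared by cortex and cerebellum the level was higher in cerebellum, with means of 3.41% and 4.27% (median log2 ratio 0.55, or 0.20 over the 7 sites of at least 2% in both), and 9 of 10 were higher than in hippocampus. Its highest site went the other way against cortex but not against hippocampus, at 15.15% in cortex, 8.65% in hippocampus and 11.30% in cerebellum. Dnm3, found at synapses, had 22, 12 and 29 sites, and all 39 of its positions lay 5049 to 9575 nt before the annotated gene end on chromosome 1. The Dnm3 site at chr1:161989273-161989273 read 9.52%, 13.95% and 15.00%, lowest in cortex. Of 10 Dnm3 sites shared by cortex and hippocampus, 8 were higher in hippocampus.

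**Figure D3:**
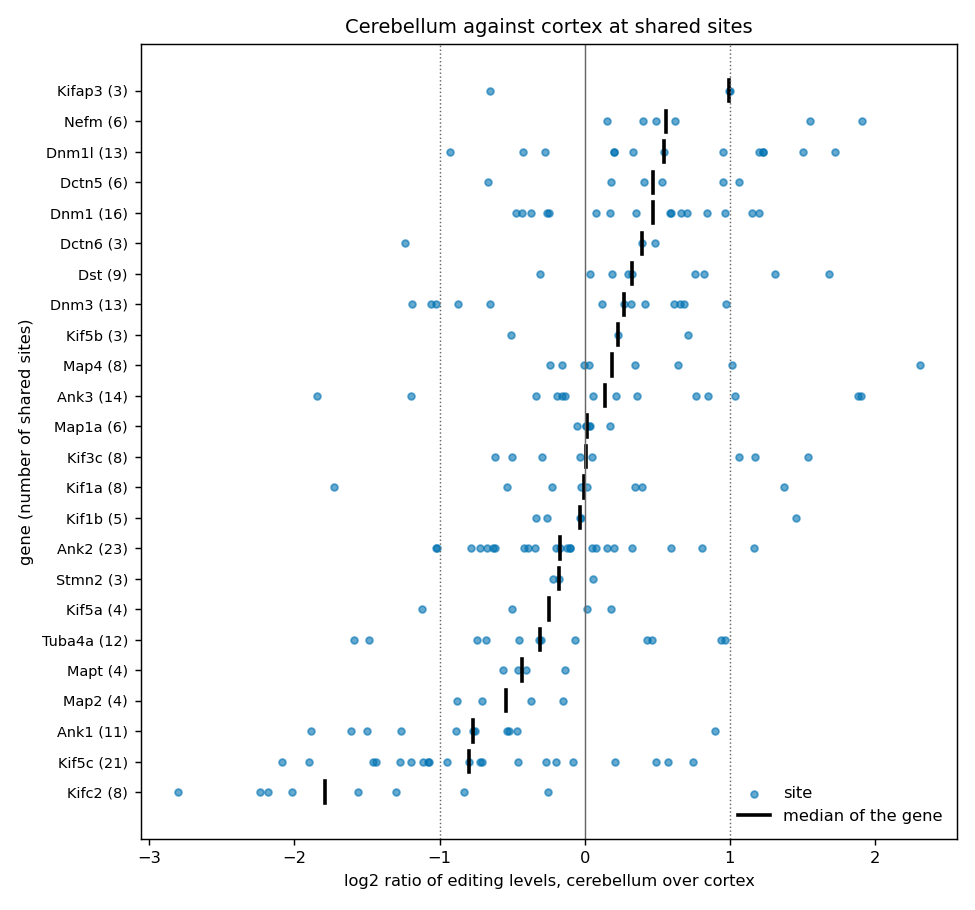
Log2 ratio of the editing level in cerebellum over cortex at each shared site, for the named members with at least 3 shared sites, ordered by the median (bar). Kifc2 lies wholly below 0 with a median of -1.79, and Nefm lies wholly above it.

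Among tubulins, Tuba4a carried nearly all the sites, with 17 in cortex, 18 in hippocampus and 14 in cerebellum out of 20 positions. Of these positions, 14 lie inside the span of its neighbour Stk16 as well. The highest, chr1:75215205-75215205, read 19.00% in cortex, 13.38% in hippocampus and 25.61% in cerebellum. Although that site was highest in cerebellum, 8 of 12 Tuba4a sites shared by cortex and cerebellum were lower there (median log2 ratio -0.31, or -0.07 over the 7 at 2% or more in both). The beta tubulins Tubb2a, Tubb3, Tubb4a, Tubb4b and Tubb5 had 1 or 2 sites each, and the gamma tubulin genes none.

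The microtubule-associated proteins had 71, 61 and 46 sites in cortex, hippocampus and cerebellum. Of 26 shared by cortex and cerebellum, 2 were 2-fold higher and 1 lower in cerebellum (median log2 ratio -0.13), against 15.1% and 12% of all shared sites. Map9, a microtubule-binding protein of the mitotic spindle, had 17 sites in cortex and 9 in hippocampus and was not in the cerebellar list. Of its 8 sites shared by cortex and hippocampus, 3 were higher and 5 lower in hippocampus (median log2 ratio -0.21). The 2 that were at least 2-fold apart were among the higher ones, and 1 of these read 2.60% in cortex and 11.11% in hippocampus. Map2, the marker of dendrites, had 11 cortical, 12 hippocampal and 5 cerebellar sites. Its site at chr1:66439125-66439125 read 7.35%, 3.11% and 4.0%, and all 4 sites shared by cortex and cerebellum were lower in cerebellum (median log2 ratio -0.54, with 1 of them at 2% or more in both). Of 9 Map2 sites shared by cortex and hippocampus, 7 were lower in hippocampus (median log2 ratio -0.65, with 1 of the 9 at 2% or more in both). At least 2-fold apart were 2 of these 7, and the 2 other sites were at least 2-fold higher in hippocampus. All 4 shared by hippocampus and cerebellum were higher in cerebellum (median log2 ratio 0.11, with 1 of them at 2% or more in both). Mapt, which encodes the axonal protein tau, had 6, 7 and 5 sites, and its 4 shared sites were likewise lower in cerebellum than in cortex (median log2 ratio -0.43, or -0.27 over the 2 at 2% or more in both). For both genes the levels were under 5% except at that 1 Map2 site.

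Map4, a microtubule stabiliser expressed in many tissues, had its sites in 2 separate groups. A group of 7 lay 530 to 1843 nt before the annotated end on chromosome 9, and a group of 11 lay 78384 to 80398 nt before it. The distant group held 6 cortical and 5 hippocampal sites and was complete in cerebellum, with 11. Its highest site, chr9:110005494-110005494, read 15.00%, 12.50% and 19.05%. The near group held 2, 6 and 6 sites. Whether the distant group lies in a coding exon was not analysed, since no exon annotation was used. Map7d2, which recruits kinesin to microtubules, had 3 sites shared by hippocampus and cerebellum, all at least 2-fold higher in cerebellum, with means of 1.34% and 4.37%, and each was under 2% in hippocampus. None of those 3 was listed in cortex. Map6d1 and Map1s, relatives of the stabilisers Map6 and Map1a, were listed in cortex alone, with 2 sites at 2.74% and 5.45% and 1 site at 2.41%.

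Stathmins bind free tubulin. Stmn2, a stathmin of growing axons, had 8 cortical, 14 hippocampal and 5 cerebellar sites, and its highest site read 4.37%, 5.64% and 3.87%. Stmn1 had a site at 6.0% in cortex, 8.74% in hippocampus and 7.10% in cerebellum. Stmn3 and Stmn4 had 1 site or none per region, at levels from 1.10% to 1.16%.

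Actin genes were sparsely listed. Actr2 and Actr3 are actin-related proteins of the complex that branches actin filaments. Actr2 had 2 cortical, 8 hippocampal and 4 cerebellar sites, most in hippocampus, and none exceeded 4.65%. Actr3 had 3, 4 and 2 sites, with 1 at 7.25% in cerebellum alone. Actb, the common cytoplasmic actin, had 3, 4 and 2 sites, none above 2.26%. Actn4, an actin cross-linker, had 1 site at 1.14% in cortex.

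Of the ankyrins, which tie membrane proteins to spectrin, Ank3 and Ank2 were among the members with the most sites. Ank3, the organiser of the axon initial segment, had 35 cortical, 22 hippocampal and 19 cerebellar sites. Most lay in a group of 31 sites 1522 to 3474 nt before the annotated end. Of 21 Ank3 sites shared by cortex and hippocampus, 11 were higher and 9 lower in hippocampus (median log2 ratio 0.05), and of 14 shared by cortex and cerebellum, 8 were higher and 6 lower in cerebellum (0.14). Its highest site, chr10:70024545-70024545, read 8.62%, 12.41% and 15.50%, lowest in cortex. Ank2, the broad neuronal ankyrin, had 34, 31 and 25 sites, and 22 of its 38 positions were in all 3 lists. Its highest site read 10.80%, 11.14% and 9.42%, close in all regions. Both genes also had small groups farther inside the gene, for Ank2 at 20589 to 25057 nt and for Ank3 at 35094 to 40930 nt before the end.

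Ank1, known from the red cell membrane and also expressed in cerebellum, combined more sites in cerebellum with lower levels. It had 11 cortical, 2 hippocampal and 17 cerebellar sites. At the 11 sites shared by cortex and cerebellum, 10 levels were lower in cerebellum, with means of 5.85% and 3.39% (median log2 ratio -0.77). The highest, chr8:23148852-23148852, read 9.76% in cortex and 5.78% in cerebellum and was not in the hippocampal list. The lowest listed Ank1 level was 3.33% in cortex and 1.66% in cerebellum. Whether weaker cortical sites were missed, which would affect both the numbers and the ratio, was not tested.

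Among the spectrins, Sptb, the red cell beta spectrin, had a site at chr12:76581141-76581141 with 15.79% in cortex, 9.40% in hippocampus and 2.41% in cerebellum. Sptbn4, the spectrin of axon initial segments and nodes, was listed in cortex alone, with 3 sites.

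Dst, a giant linker between actin, microtubules and intermediate filaments, had 11, 7 and 16 sites, and 8 of 9 shared by cortex and cerebellum were higher in cerebellum. Its highest site, chr1:34307816-34307816, read 5.15%, 5.00% and 9.09%. Nefm, the medium neurofilament chain of large axons, had 6 cortical, 2 hippocampal and 10 cerebellar sites within 456 nt of its annotated end. All 6 Nefm sites shared by cortex and cerebellum were higher in cerebellum, with means of 2.38% and 4.20%. The median log2 ratio was 0.56, or 0.40 over the 3 at 2% or more in both. The site at chr14:68119936-68119936 read 1.54% in cortex and 5.80% in cerebellum, and chr14:68119977-68119977 read 4.24%, 3.47% and 5.59%.

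**Figure D4:**
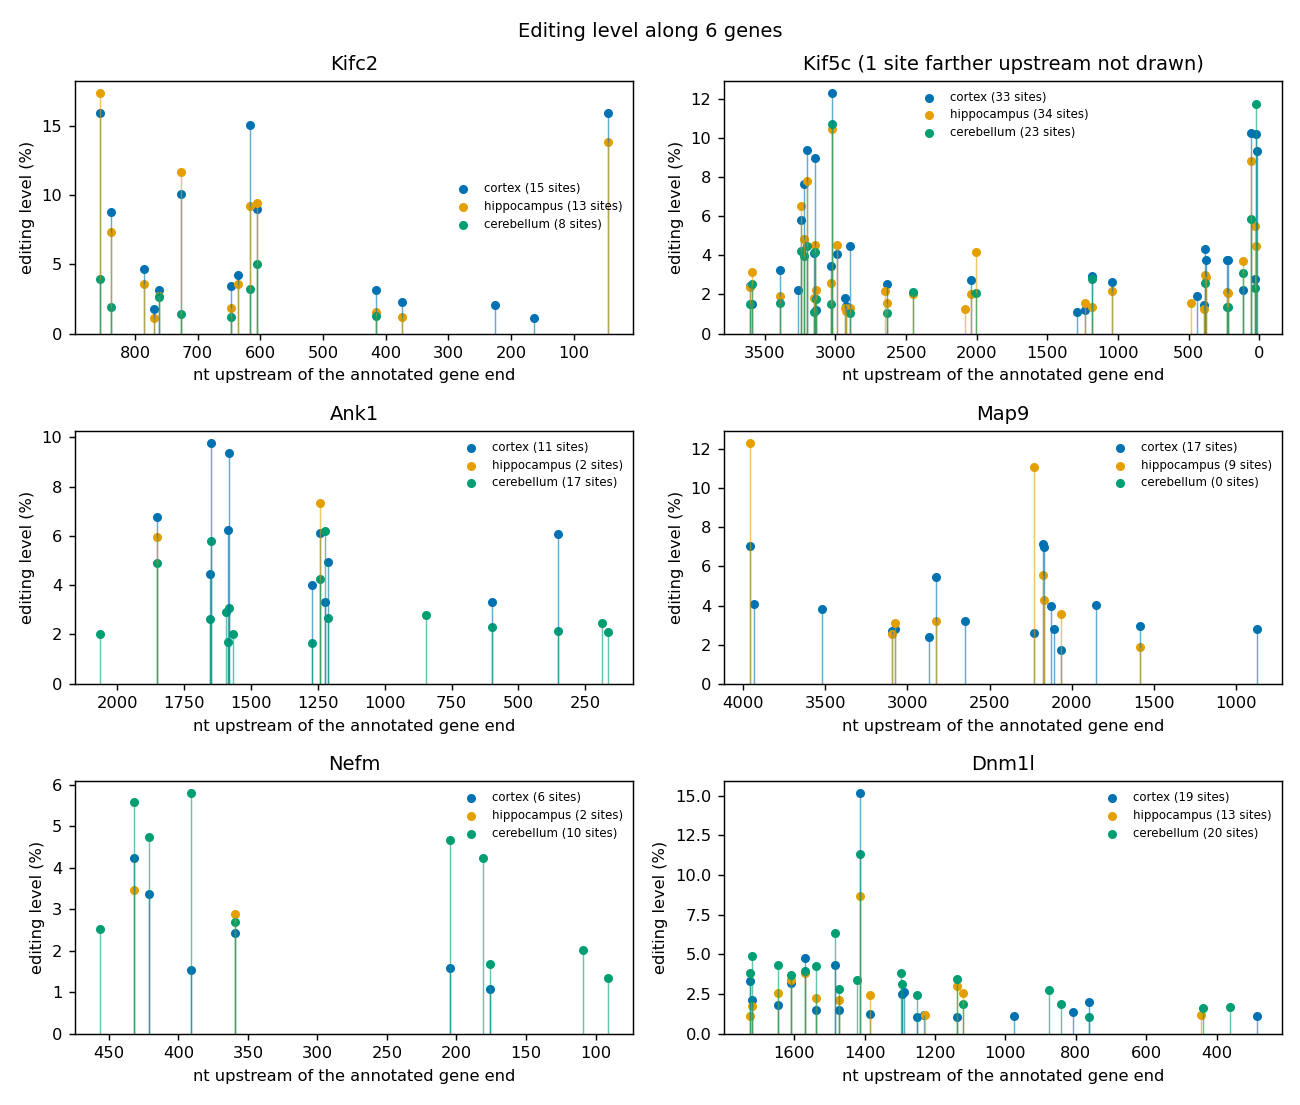
Editing level in percent against distance before the annotated gene end for 6 genes, with 1 colour per region. Kifc2 levels reach 15.96% in cortex and 17.40% in hippocampus but at most 5.05% in cerebellum, and Nefm shows the opposite order between cortex and cerebellum.

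Sites in these genes were close together. Another listed site lay within 50 nt on the same strand for 64.7% of them, against 59.3% of all sites. The median distance to the annotated gene end was 1539 nt, against 1523 nt over all sites inside gene spans. Sites farther than 5000 nt from the end numbered 86, or 14.4% against 13% of all, with 39 in Dnm3, 14 in Map1a, 11 in Map4, 8 in Ank3 and 6 in Ank2. These distances are along the genome and include introns.

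A few sites stood far above the rest in listed level. At such sites the lists cannot tell editing apart from a difference between these mice and the mm10 reference, which was not tested. Only 6 of 603 (0.995%, against 1.09% of all sites) reached 35% in any region, and they belonged to Kif5a, Map1a, Kif5c and Kif21b. Kif5a, another conventional kinesin heavy chain, had 1 at chr10:127236083-127236083 with 42.16%, 46.31% and 42.60% and another at chr10:127239192-127239192 with 43.54%, 47.57% and 49.46%. Map1a, a microtubule protein of mature neurons, had 1 at chr2:121302213-121302213 with 44.42%, 48.10% and 44.66% and another at chr2:121295509-121295509 with 43.39%, 46.60% and 44.23%, the latter also inside the span of Trp53bp1. These 4 sites were in all 3 lists at nearly equal levels.

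The remaining 2 were in 1 list each. Kif5c had 44.30% in cerebellum at chr2:49723110-49723110, where the nearest other site was 48060 nt away. Kif21b, a kinesin that limits microtubule growth, had 54.55% in cortex at chr1:136151190-136151190, with the nearest other site at 25572 nt. The other Kif21b site read 2.20%, and the next site below 35% in any member was that of Tuba4a at 25.61%.

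**Figure D5:**
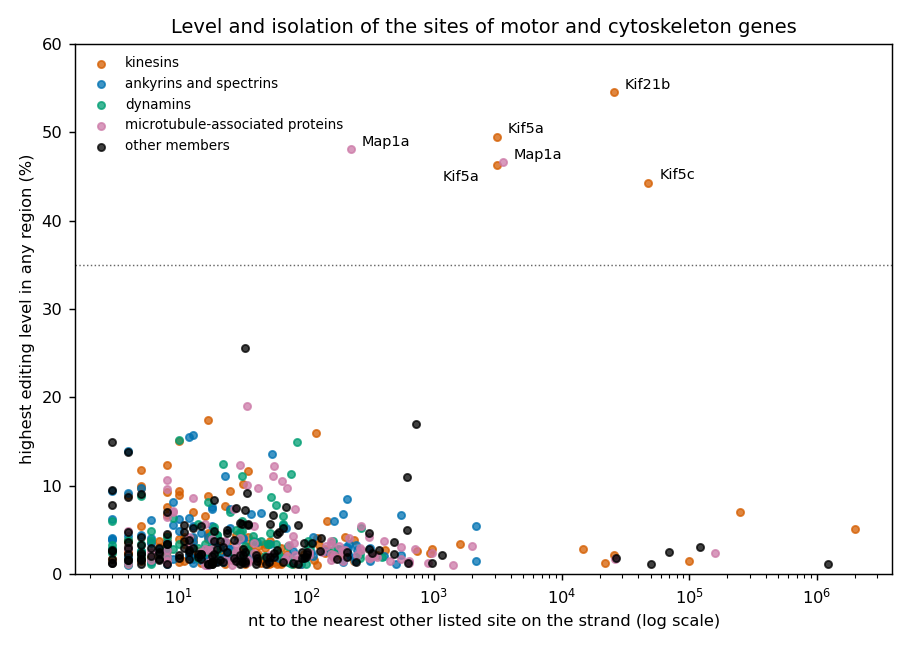
Highest editing level of each of the 603 sites in any region against the distance in nt to the nearest other listed site on the same strand, of any gene (log scale). The 6 sites above the dotted line at 35% lie apart from the mass of sites, and only 1 of them, in Map1a, has another site within 1000 nt.

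Genes that work with these proteins gave a range of values. Of 36 motor adaptors and dynein regulators, 14 had a site, and of 44 regulators of microtubule dynamics 20 did. Sites were listed for 8 of 29 genes of tubulin folding and modification, 44 of 86 actin regulators and 15 of 30 partners of the membrane skeleton. Of all protein-coding genes 16.7% had a site, and of those matching the members' symbols 37.0%. Regulators of microtubule dynamics had 80 sites shared by cortex and cerebellum, of which 16 were 2-fold higher and 7 lower in cerebellum (median log2 ratio 0.48). Map1b alone held 59 of that list's 177 cortical sites and 72 of its 115 cerebellar sites. Over all shared sites, 15.1% were higher and 12% lower. Actin regulators had 9 higher and 7 lower of 81 (0.06), membrane skeleton partners 9 higher and 10 lower of 66 (-0.06), and motor adaptors 5 higher and 7 lower of 44 (0.14). Tubulin folding and modification genes had 6 higher and 1 lower of 21 (0.42), and Ttll7 alone held 17 of their 46 cortical and 27 of their 41 cerebellar sites. Differences between these lists were not tested.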

How the data were processed

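Per the labels' protocols, each poly(A) library came from 900 ng of total RNA and a strand-specific kit. The submitters' processing notes name mm10 as the build and STAR 2.7.5. Per the labels, edits in APOBEC1-YTHmut libraries were used as background when sites were called. Which caller and depth minimum were used, and how libraries were pooled, is not given in the sources used here. The deposited value of each site is a fraction, read here as the share of edited reads, an assumption that the lists leave unsettled. No value was below 1%, and depth is unknown.

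Sites were shared when chromosome, position and strand were identical. Spans and gene ends came from the RefSeq table of GRCm38.p6, the assembly of mm10, in which all 61 members were matched. At 63 listed sites inside RefSeq promoter windows, none in a member, the reference letter was C after A in all 63. Site sequences of the members were not analysed here. The values of 1 member are not reported here, though it counts in the totals. Shares have exact binomial intervals and medians have order-statistic intervals, both at 95%. Calculations were checked on simulated data.

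Members, gene lists and thresholds were chosen with earlier results of these data known. Genes were named by these rules: per region the 8 with most sites, the 5 with the highest site and up to 5 listed nowhere else. Added to these were the 2 with most sites per family and, per pair of regions, the 6 highest and 6 lowest median log2 ratios over at least 3 shared sites and the 4 largest differences each way. Genes named outside these rules, among them genes without a site, were chosen after their values were seen. Software was scipy 1.17.1, pandas 2.3.3, numpy 2.4.6 and matplotlib 3.10.9 under Python 3.11.15.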

Additional observations from a re-analysis of the deposited data

How the results depend on the processing

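Of 85 values for the members as a group, 69 stayed within 1.5 times the value as deposited, for numbers of sites or genes, or within its 95% interval, for shares and medians. With sites of at least 2% only, 287 sites were left in cortex and 226 in hippocampus. Median levels were then 3.57%, 3.52% and 3.64% for cortex, hippocampus and cerebellum, and 23.8% of sites were in all 3 lists, against 17.2% of all sites. At that limit 2.50% of shared sites were 2-fold higher and 3.12% lower in hippocampus than in cortex, against 4.82% and 6.03% of all. Lower in cerebellum than in cortex were 8.70%, against 9.57% of all, so the members' share passed from above to below that of all sites. Higher in cerebellum than in hippocampus were 3.31%, against 11.8% of all. With 1.5-fold in place of 2-fold, 16.2% of shared sites were higher and 19.6% lower in hippocampus than in cortex, against 19.0% and 20.2% of all. In cerebellum, 22.6% were higher and 26.1% lower than in cortex (28.5% and 23.4% of all), and 17.3% were higher and 22.6% lower than in hippocampus (27.6% and 23.2% of all), where higher sites outnumbered lower ones at 2-fold. Leaving out sites that reach 35%, merging sites within 10 nt, leaving out Kif5c, asking for 2 sites a gene, taking 1 value a gene and scaling moved none of the group values beyond those bounds, but without Kif5c the median log2 ratio of cerebellum over cortex changed sign, from -0.06 to 0.01. Leaving out Kif5c and Kifc2 from the kinesins was chosen after seeing the data. Of 74 gene medians over at least 3 shared sites, 5 changed sign with scaling (Ank3, Kif3c and Dst in 1 pair of regions each and Map1a in 2), and 10 changed sign at the 2% limit, among them Map4 for cerebellum over hippocampus and Kif3c for hippocampus over cortex. No paired analysis was possible because the lists hold no values per library, and for the same reason no replicate could be left out. Read depth, which limits how well levels of 1% to 3% can be compared, is unknown.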
